A study of Mus musculus with 27 samples.

Results

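The regions described here were 16299 non-overlapping 1-kb bins of the mouse autosomes (build mm9) in formative pluripotent stem cells (fPSCs) at passage 10. Each had 5 or more 100-base windows with a listed methylation level, a mean level from 0.3 to 0.7, and a mean RPKM (reads scaled to region length and library size) under 0.5 for both H3K4me3 and H3K27me3. They were 1.65% of the 990757 bins with 5 or more listed windows, 2.97% of the 549146 such bins under both RPKM limits, and 32.1% of the 50715 bins of intermediate mean. The bins were chosen on the methylation and ChIP values themselves, so these values are given as a description, with no test.

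The fPSCs are mouse cells labelled WT, between naive embryonic stem cells (mESCs) and primed epiblast stem cells (EpiSCs). They were kept with Matrigel in N2B27 medium with Activin A, bFgf2 and the Wnt/β-catenin inhibitor XAV939. The methylation, H3K4me3 and H3K27me3 tables describe fPSCs at passage 10, and 1 table was used for each assay, so no spread between replicates could be given for a bin. For gene expression, FPKM values of 7 fPSC libraries were compared with those of 2 mESC libraries (N2B27 with PD035901, Chir99021 and hLIF) and 2 EpiSC libraries (N2B27 with KSR, Activin A, bFGF2 and XAV939, on inactivated mouse embryonic fibroblasts), all labelled WT, with 2 EpiLC libraries (epiblast-like cells, N2B27 with KSR, Activin A and bFgf2) in the same fit. The fPSC libraries were those at passages 10, 20 and 30 and those named 46C, BVSC, CMT and ROSAmTmG, and the parental line of the passage 10 cells used for methylation and ChIP is not stated in the labels. Of 10 core pluripotency markers, 10 reached 1 FPKM in both mESC libraries and 9 in both EpiSC libraries and in all 7 fPSC libraries. The read depth of the libraries is unknown from FPKM.

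In mammalian cells most CpG sites carry 5-methylcytosine, and the main exceptions are CpG islands at promoters, where H3K4me3 marks active or poised starts and H3K27me3 marks Polycomb repression. A mean methylation level near the middle of the scale can arise when neighbouring CpG sites are each methylated on part of the molecules, as at imprinted control regions, or when fully methylated and unmethylated sites lie side by side, as at the edge of a CpG island or at a short stretch bound by a factor such as CTCF. CTCF is a zinc finger protein that binds insulators and loop anchors, and ZFP57 is a zinc finger protein that keeps methylation at imprinted regions.

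Windows were called low under 0.3, intermediate from 0.3 to 0.7 and high above 0.7. Nearly all of the bins mixed low and high windows. Of the 16299, 15356 (94.2%) held at least 1 low and 1 high window, 895 (5.49%) held high and intermediate windows only, 44 (0.270%) held low and intermediate windows only, and 4 (0.0245%) were uniform, with every listed window intermediate. Of the 34416 bins of 0.3 to 0.7 that carried a mark, 30385 (88.3%) were mixed and 59 (0.171%) were uniform.

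The 4 uniform bins had 5 listed windows each, and no uniform bin had all of its windows listed. The bin with most CpG, chr5:67252001-67253000 (22 CpG), lay in an intron of Limch1, which encodes an actomyosin regulator, 114927 bases from that gene's start. Its window levels were 0.57, 0.69, 0.55, 0.67 and 0.6. The second, chr3:87371001-87372000 (20 CpG), lay between genes, 41672 bases from the start of Etv3, an ETS repressor, and its levels were 0.35, 0.65, 0.62, 0.33 and 0.62. The next, chr12:23272001-23273000 (7 CpG), had levels of 0.5, 0.67, 0.38, 0.54 and 0.67. The last, chr5:70004001-70005000 (5 CpG, 1 in each listed window), lay 20425 bases from the start of Gnpda2 and had levels of 0.7, 0.5, 0.33, 0.69 and 0.42. Only the Limch1 bin kept all of its windows within 0.55 to 0.69. The sequences of the first and second are shown because they are the CpG-richest stretches at which no window was low or high, and capitals mark their CpG sites (300 bases each, plus strand, genome NCBIM37, the same assembly as mm9).

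Limch1 intron, chr5:67252351-67252650: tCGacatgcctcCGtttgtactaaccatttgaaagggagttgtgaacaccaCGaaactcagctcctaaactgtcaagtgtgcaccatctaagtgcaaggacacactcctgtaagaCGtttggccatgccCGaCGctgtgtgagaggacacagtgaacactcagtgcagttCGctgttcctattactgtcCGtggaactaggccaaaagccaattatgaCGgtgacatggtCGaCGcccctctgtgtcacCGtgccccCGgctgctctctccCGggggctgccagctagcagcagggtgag

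41672 bases from Etv3, chr3:87371401-87371700: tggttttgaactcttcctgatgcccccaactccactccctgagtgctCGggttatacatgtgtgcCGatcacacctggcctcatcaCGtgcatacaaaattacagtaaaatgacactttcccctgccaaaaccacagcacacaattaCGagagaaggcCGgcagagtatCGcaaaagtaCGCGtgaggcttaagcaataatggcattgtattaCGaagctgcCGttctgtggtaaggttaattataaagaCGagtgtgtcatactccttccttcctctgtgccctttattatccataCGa

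Mixed bins took several shapes. The sharpest were steps between windows at 1 and windows at 0. In an intron of Tmem135, which encodes a peroxisomal and mitochondrial membrane protein, the bin chr7:96535001-96536000 had 4 listed windows at 1 followed by 2 at 0, and the last of these held 15 of the 27 CpG of the bin. The same form with fewer CpG was seen in chr5:144864001-144865000 in an intron of Lmtk2, a transmembrane kinase gene (0, 0, 1, 1 and 1), and in a bin on an exon of Seh1l, a nuclear pore gene, with the same levels. The Tmem135 stretch is shown because its CpG, in capitals, lie within a simple repeat of ca and cg units, and whether reads were placed correctly in such repeats was not tested.

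Tmem135 intron, chr7:96535551-96535850: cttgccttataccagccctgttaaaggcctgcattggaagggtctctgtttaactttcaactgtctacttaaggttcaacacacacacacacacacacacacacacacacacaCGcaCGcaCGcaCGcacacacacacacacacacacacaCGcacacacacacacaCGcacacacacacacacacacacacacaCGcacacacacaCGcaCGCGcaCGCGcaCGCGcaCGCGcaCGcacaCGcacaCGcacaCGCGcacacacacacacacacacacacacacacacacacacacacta

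Other bins alternated. Among mixed bins the bin chr9:87314001-87315000, 163630 bases from the nearest protein-coding start, had all of its windows listed, with levels of 0.85, 0.81, 0.17, 0.5, 0, 0.73, 0.88, 0.45, 0.93 and 0.71, and crossed 0.5 on 6 occasions from window to window. The same number of crossings was found at chr1:73909001-73910000 (levels from 0.2 to 0.85) and at chr4:70476001-70477000 (levels from 0 to 1). Over all 16299 bins, 112 never crossed 0.5, 4416 crossed at 1 place, 6100 at 2, 3833 at 3, 1587 at 4, 213 at 5, 37 at 6 and 1 at 7. A stretch of the chr9 bin (24 CpG in the bin) is shown because levels alternate along the bin. The stretch covers the windows at 0.5, 0 and 0.73.

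163630 bases from a start, chr9:87314301-87314600: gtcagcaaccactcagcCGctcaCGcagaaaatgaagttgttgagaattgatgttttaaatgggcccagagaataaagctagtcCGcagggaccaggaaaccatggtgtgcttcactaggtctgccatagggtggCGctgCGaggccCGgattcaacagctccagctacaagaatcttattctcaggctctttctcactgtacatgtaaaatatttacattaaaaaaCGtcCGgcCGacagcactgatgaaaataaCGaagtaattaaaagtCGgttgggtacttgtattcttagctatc

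The mixed bins with most CpG were of 2 kinds, simple repeats and clusters of CpG in other sequence. In an intron of Mxi1, a MYC antagonist gene, chr19:53423001-53424000 (87 CpG) had levels of 0.83, 0, 0.14, 0.38, 0.28, 0.23 and 0.91, and its densest stretch is a repeat of gt and cg units. So is that of chr17:5949001-5950000 (63 CpG) in an intron of Synj2, an inositol phosphatase gene, with levels of 0.55, 1, 1, 0, 0.6, 0.53 and 1. The bin chr1:6431001-6432000 (69 CpG), 45312 bases from the start of St18, had a stretch at 0.07, 0 and 0.1 that held 48 CpG between windows of 0.64 and 0.35. At Npepl1, a peptidase gene, chr2:173935001-173936000 (63 CpG) holds the start of the gene and went from 1 and 1 through 0.75 and 0.28 to 0. The bin chr13:66969001-66970000 (63 CpG) rose from 0.12, 0.06 and 0.13 through 0.33 and 0.4 to 0.8. The Mxi1 stretch is shown because its bin had the most CpG of the mixed bins.

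Mxi1 intron, chr19:53423701-53424000: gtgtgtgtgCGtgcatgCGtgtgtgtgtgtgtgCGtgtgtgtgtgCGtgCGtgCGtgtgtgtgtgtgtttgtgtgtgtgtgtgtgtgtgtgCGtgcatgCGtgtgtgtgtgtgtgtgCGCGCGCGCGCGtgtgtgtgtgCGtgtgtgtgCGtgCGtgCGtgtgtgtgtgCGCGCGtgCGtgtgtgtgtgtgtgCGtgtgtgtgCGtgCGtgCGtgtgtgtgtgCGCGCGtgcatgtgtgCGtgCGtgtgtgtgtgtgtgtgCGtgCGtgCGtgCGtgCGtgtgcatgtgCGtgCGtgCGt

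**Figure D1:**
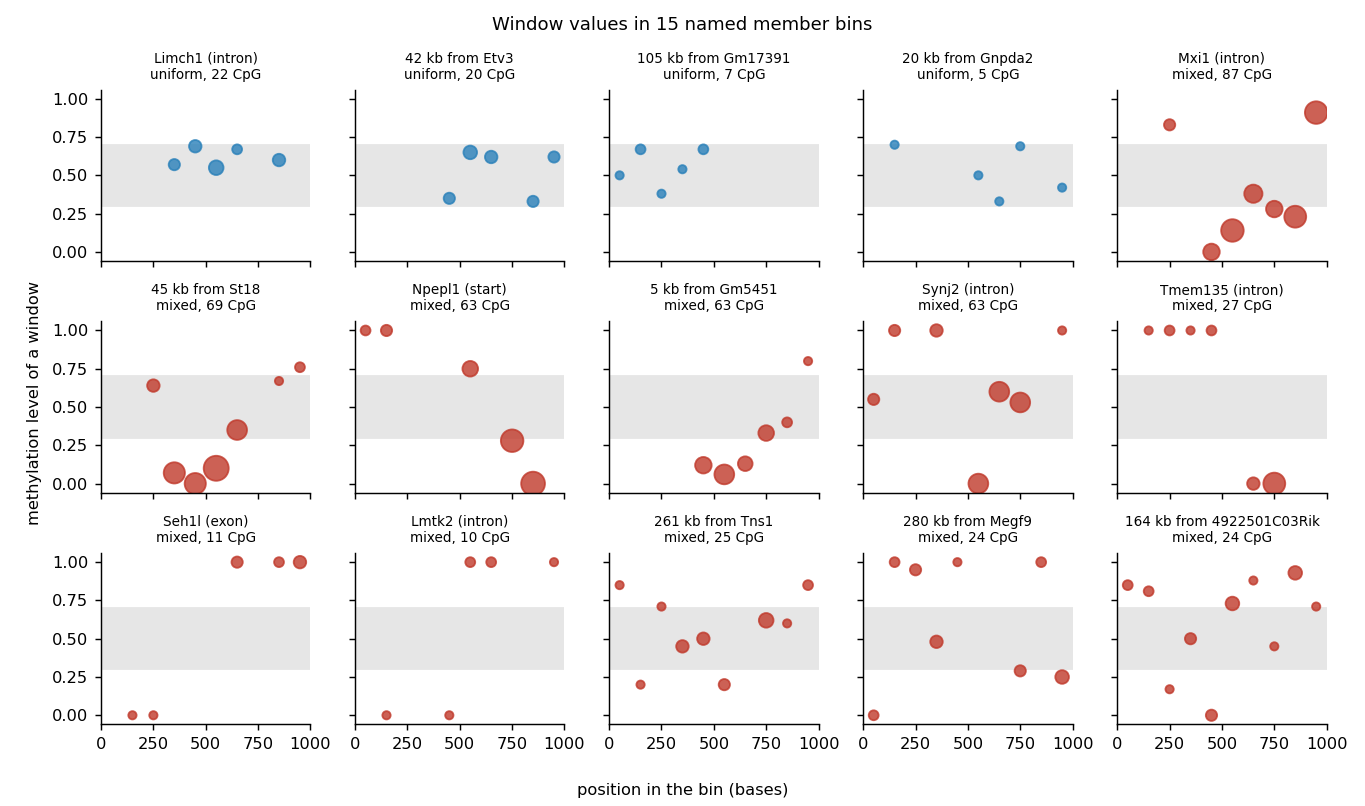
Methylation level of each listed 100-base window (vertical axis, 0 to 1) against its position in the 1-kb bin (bases) for the 4 uniform bins (blue) and 11 mixed bins (red) named in the text. Point area grows with the number of CpG in the window and the grey band spans 0.3 to 0.7. All points of the uniform bins sit in the band, and the mixed bins hold points below and above it.

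At the limits of the rule, the lowest bins inside had a mean of 0.3 (chr4:91078001-91079000 and chr8:7461001-7462000) and the nearest unmarked bins outside had means of 0.298 at chr3:151437001-151438000 and chr16:88351001-88352000. The highest inside had a mean of 0.7 and the nearest outside 0.701. For H3K4me3 the bins just inside were at 0.498 RPKM and those just outside at 0.62, and for H3K27me3 they were at 0.451 and 0.512. The members' means were not spread evenly: 608 lay from 0.3 to 0.4, 1484 from 0.4 to 0.5, 4228 from 0.5 to 0.6 and 9979 (61.2%) from 0.6 to 0.7, with a median of 0.628.

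The ChIP limit lies close to the background of these tables. RPKM values were whole multiples of 1.24 for H3K4me3 and 0.645 for H3K27me3 in a 100-base window, so a bin under the limit held at most 4 and 7 reads. Across the autosomes the mean was 0.394 RPKM for both marks, and 77.4% and 67.5% of the bins with 5 or more windows lay under the limit for H3K4me3 and H3K27me3. Among the members, H3K4me3 was at 0 in 6314 (38.7%), H3K27me3 in 2748 (16.9%) and both in 1301 (7.98%). Their means, 0.171 and 0.199 RPKM, were close to those of unmarked bins above 0.7 (0.154 and 0.183). As a check of the tables, the median over 2 kb around the start was 6.22 RPKM of H3K4me3 and 0.177 of H3K27me3 at 22 housekeeping genes, and 3.61 and 3.21 at 26 developmental regulator genes.

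Low windows in these bins were mostly alone, poor in CpG and fully unmethylated. A member held a median of 5 listed windows, and 80.6% (13143) held at least 1 window at exactly 0, compared with 4.15% of the 532506 unmarked bins above 0.7 and 62.8% of the marked intermediate bins. Of all 93957 listed windows of the members, 26.7% were low, 19% were intermediate and 54.4% were high. In 11091 members (68.0%) each low window stood apart from the next low one, in 4309 (26.4%) 2 or more low windows were adjacent among the listed ones, and 899 (5.52%) had none. Low windows of members held a mean of 1.37 CpG and 77.9% held 1 CpG, while their high windows held 1.62 and 59.9%. In marked bins of 0.3 to 0.7 the relation was the opposite, with a mean of 3.08 CpG in low windows and 1.93 in high ones. How many reads lie behind a window's level is not given in the table, so a level of 0 or 1 has no interval.

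The bins held fewer CpG than the other sets, and more of them lay between genes than of the methylated ones. They held a median of 9 CpG, against 11 over all bins with 5 or more windows, 10 in unmarked bins above 0.7 and 14 in marked bins of 0.3 to 0.7. Members also had fewer listed windows, a median of 5 against 6 in each of these sets. Of the members, 9252 (56.8%) lay between protein-coding genes, 5447 (33.4%) in introns, 1391 (8.53%) on exons and 209 (1.28%) within 1000 bases of a protein-coding gene's start. Where 8 or more listed windows were asked for, the members' median was 15 CpG, and no median of the other sets was taken under that rule. The share between genes was 45.1% of unmarked bins above 0.7, 45.3% of marked bins of 0.3 to 0.7 and 50% of all bins, but 64.9% of the 7213 bins of 0.3 to 0.7 with H3K27me3 only, and that of members fell to 49.9% with a limit of 0.25 RPKM. The share near starts was 22.3% among marked bins of 0.3 to 0.7 and 0.936% among unmarked bins above 0.7. Repeated sequence was no commoner than in methylated bins: 7.15% of members had most of their 24-base words at over 10 places on the autosomes, against 9.69% of 16641 unmarked bins above 0.7, a regular sample of them.

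On average the adjoining bins had a higher level than the members. Part of this is built in, because the members alone were chosen for a low mean. At some gene starts described below an adjoining bin was low too. Around members with single low windows (mean 0.625) the flanking bins 1 kb away had means of 0.808 and 0.806 and those 10 kb away 0.822 and 0.829. Around members with adjacent low windows (mean 0.533) the values were 0.803 and 0.806 at 1 kb and 0.826 and 0.830 at 10 kb. Unmarked bins above 0.7 had 0.905 on both sides at 1 kb and 0.886 on both sides at 10 kb, so the surroundings of members were lower as far as 10 kb. Marked bins of 0.3 to 0.7 lay in broader valleys, with 0.692 on both sides at 1 kb. H3K4me3 of 0.5 RPKM or more was found in 12.0% and 11.6% of the bins next to members with single low windows, in 10.3% and 10.2% next to unmarked bins above 0.7, and in 59.8% and 57.2% next to marked bins of 0.3 to 0.7. For H3K27me3 these shares were 17.8% and 18.9%, 15.7% and 15.6%, and 48.3% and 48.9%.

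Members ran together in few places: 15271 stood alone, 478 pairs, 20 groups of 3 and 3 groups of 4 were adjacent. One group of 4 lay in introns of Slc8a1, the cardiac sodium-calcium exchanger gene, at chr17:82015001-82019000. The listed windows of its second bin were 1, 0.89, 0, 0 and 0.07 and those of the third were 0, 0.95, 0, 0 and 0.94, and each of these windows but the last held a single CpG. The other groups of 4 lay in introns of Asap2, a gene for a GTPase-activating protein (chr12:21150001-21154000), and of Tnfaip8. In the Asap2 group the bin means were 0.678, 0.65, 0.658 and 0.603, and each bin held 1 or 2 low windows that stood apart. Of the 20 groups of 3, the first along the genome was a group between genes at chr1:67687001-67690000 (means of 0.635, 0.53 and 0.69), and the next lay in Ddr2, a collagen receptor gene, at chr1:171965001-171968000 (0.628, 0.674 and 0.624).

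The bins were unevenly spread along the chromosomes, in patches of megabases. Over 2375 blocks of 1 Mb with 50 or more unmarked bins, members made up from 0 to 33.3% of the unmarked bins, with a median of 2.03%. No member lay in 200 blocks, and the 190 blocks (8% of them) at 10% or more held 4795 members, 29.4% of all. By chromosome the share ran from 1.44% on chromosome 10 to 4.53% on chromosome 8 and 4.36% on chromosome 14. Patches changed along one chromosome: on chromosome 14 members were 16.9% of 1596 unmarked bins in chr14:8000001-20000000 (270 members) and 0.240% of 2911 in chr14:87000001-99000000 (7 members).

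The same patches were seen in windows that the rule could not use. In bins with fewer than 5 listed windows, 55750 windows with 1 CpG, 2.32% of such windows, were low between a high listed window on either side. By block this rate ran from 0 to 10.9%, and the share of members followed it. Where the rate was under 0.25% (447 blocks), 645 of 111149 unmarked bins were members (0.580%), and where it was 4% or more (386 blocks), 7105 of 71363 were (9.96%). The 3 groups between gave 1.15%, 1.99% and 3.17%. Across the 2375 blocks Pearson's r was 0.859 and Spearman's rho 0.825, a description over blocks that share 1 library and whose neighbours are not independent. Where 8 or more listed windows were asked for, 1068 bins remained and r was 0.28. Within each of the 19 chromosomes r, with 5 or more, lay between 0.727 and 0.921. The mean CpG number of a block's unmarked bins did not follow the member share (r = -0.0809), and the number of listed windows in the block did so weakly (r = -0.338). The mean CpG number was 10.4 in the blocks of the lowest rate and 10.8 in those of the highest.

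**Figure D2:**
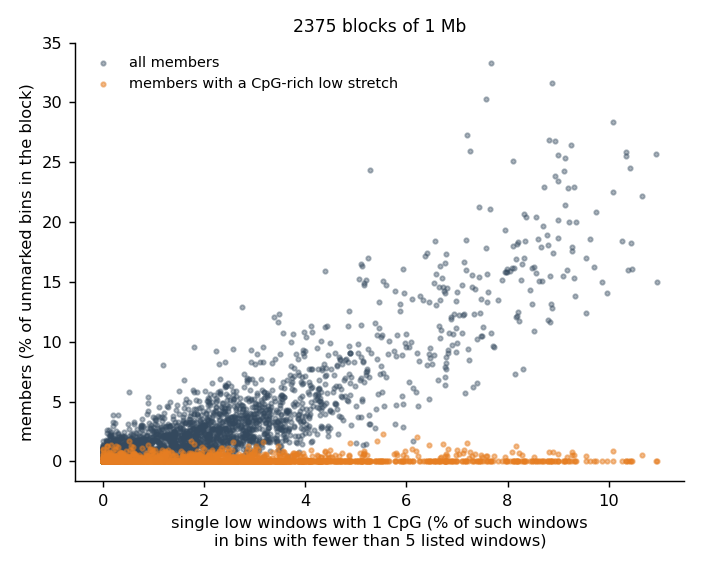
Share of unmarked bins that were members (vertical axis, %) against the rate of low 1-CpG windows between high neighbours in bins the rule could not use (horizontal axis, %), 1 point per block of 1 Mb (2375 blocks, dark). Orange points give the share of members with a CpG-rich low stretch in the same blocks. The dark points climb to 33.3%. The orange ones stay near 0 along the whole axis, and their set is too small for their height to be compared with the dark points.

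Members in the patches differed in kind from members outside them. In the blocks at 4% or more, 89.1% of members had a window at exactly 0, compared with 42.6% in the blocks under 0.25%. Their window levels also differed with the number of CpG in the window. Of windows with 1 CpG, 34.8% were at exactly 0 and 5.22% were intermediate, whereas in the blocks under 0.25% these shares were 10.3% and 25.2%. Of windows with 2 CpG, 23.2% lay from 0.40 to 0.55 in the patches and 11.1% outside. Of windows with 3 CpG, 24% lay from 0.55 to 0.70 in the patches and 11% outside. Such values are those a window takes when 1 of its CpG reads as unmethylated and the rest as methylated. Whether the cells' own genome has a CpG at these positions was not tested.

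**Figure D3:**
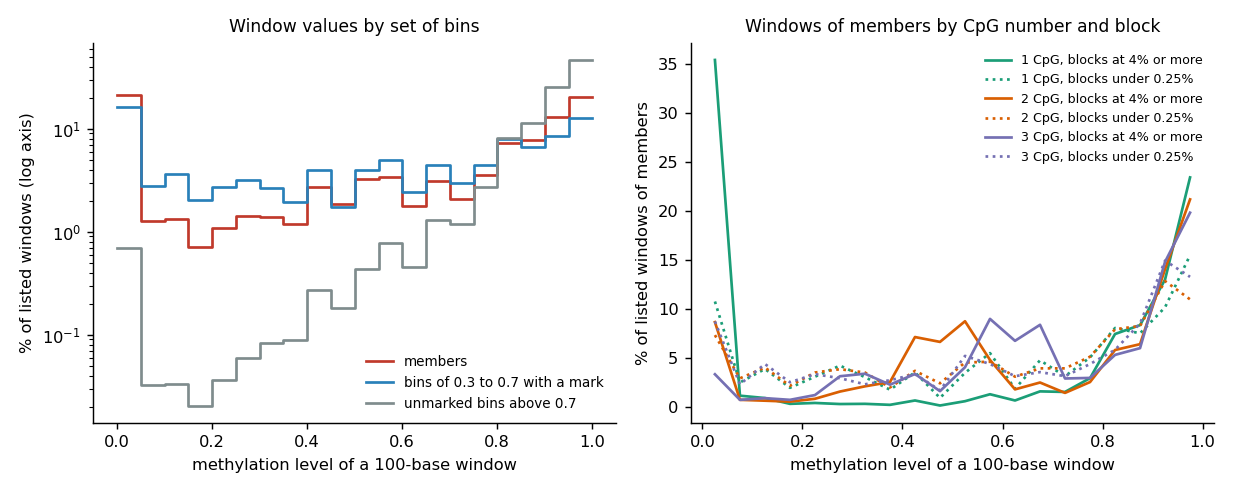
Left, share of listed windows (%, log axis) by methylation level in steps of 0.05 for members, marked bins of 0.3 to 0.7 and unmarked bins above 0.7. Right, the same share on a linear axis for windows of members with 1, 2 or 3 CpG, in blocks where the rate of single low windows was 4% or more (solid) or under 0.25% (dotted). All lines rise towards 1. Below 0.7 the solid lines peak at 0 for 1 CpG, at 0 and from 0.40 to 0.55 for 2 CpG and from 0.55 to 0.70 for 3 CpG, and the dotted lines of the 3 CpG numbers lie close together.

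The share of a small set of members rose less from the blocks of lowest rate to those of highest. In 556 members (3.41%) adjacent low windows, or a single one, held 6 or more CpG in all, a limit set after the values were seen. This share was 13.8% where 8 or more listed windows were asked for and from 2.25% to 5.71% under the other alternatives. These CpG-rich low stretches made up 0.0630% of the unmarked bins in the blocks under 0.25% and 0.132% in those at 4% or more, with r = 0.0713 across blocks, while the share of all members went from 0.580% to 9.96%. Their bins held a median of 18 CpG, had a mean H3K4me3 of 0.251 RPKM and lay within 1000 bases of a start in 6.65% of cases. The adjoining bins carried H3K4me3 of 0.5 RPKM or more in 23.2% and 21.9% of cases. For H3K27me3 these shares were 30.6% and 36.3%. By the 24-base word measure 12 of the 556 (2.16%) were mostly repeated sequence. That measure does not count simple repeats apart. Such repeats made up low stretches of this set in introns of Arid5b, Ptpn14 and Zfhx3, and those at Tsnax and Prdm2 lay in other sequence.

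Members held the core motif of CTCF more often than methylated bins did. The core was searched on both strands, apart from the other motifs and whether or not it overlapped one, as CC, any 3 bases, AG, any 2 bases and GGC. It was found in 2655 members (16.3%, and 31.4% of the 1068 with 8 or more listed windows), in 10.3% of the unmarked bins above 0.7 and in 12.5% of all bins with 5 or more windows, while the mean GC content was 41.9%, 42.5% and 44.0%. The share did not simply follow the low windows. It was 18.9% of the 899 members without a low window, 13.7% of members with single low windows, 22.3% of those with adjacent low windows and 41.9% (233 of 556) of those with a CpG-rich low stretch. Marked bins of 0.3 to 0.7, with a mean GC content of 46.8% against 46.5% in the 556, held it in 21.8%. By block, 44.5% of the 645 members in blocks under 0.25% had a core, 19.4% of the 8405 in blocks from 0.25% to 4%, and 10.2% of the 7105 in blocks at 4% or more. The share in the blocks at 4% or more was close to the 10.3% of unmarked bins above 0.7.

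The core also lay where the methylation was low. In members, 58.8% of the 2083 listed windows with a core were low and their mean level was 0.334, compared with 25.9% and 0.610 in windows without one. This held at each CpG number: 58.1% against 35.1% low in windows with 1 CpG, 53.2% against 12.9% with 2 CpG, and 65.9% against 11.5% with 3 or more. In members with adjacent low windows the mean level was 0.191 in the window with the core, 0.356 in the next window to the right and 0.678 at 3 windows to the right, and it was 0.851 at 10 windows. Some recovery with distance is built in, because the members were chosen for a low mean. In unmarked bins above 0.7 the window with the core had a mean of 0.888 against 0.917 in windows without it. The low level at the core was not particular to members. In marked bins of 0.3 to 0.7, 56.6% of windows with a core were low, against 29.3% of those without. The other motifs, searched on both strands, differed less between windows with and without a match. For ZFP57 (TGCCGC), 6.74% of members had a match, against 7.74% of unmarked bins above 0.7 and 9.56% of all bins, and 22.2% of windows with a match were low against 26.7% of those without. That motif holds a CpG, and by CpG number the shares were 34.3% against 35.4% with 1 CpG, 17.9% against 13.9% with 2 and 17.5% against 13.6% with 3 or more. In members with a CpG-rich low stretch 51 of 91 windows with a ZFP57 match were low, against 38.4% of those without. By CpG number these shares were 33.3% against 24.1% with 1 CpG (9 windows with a match). They were 33.3% against 30.5% with 2 and 65.1% against 55.4% with 3 or more. For the octamer of POU factors (ATGCAAAT), 8.33% of members had a match, against 7.91% and 7.24%, and 224 of 746 windows with a match were low, and 26.6% of those without. In marked bins of 0.3 to 0.7 windows with these 2 motifs were also low more often, 45.8% against 29.7% for ZFP57 and 39.2% against 30% for the octamer. A match gives letters in the reference and no measurement of binding.

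**Figure D4:**
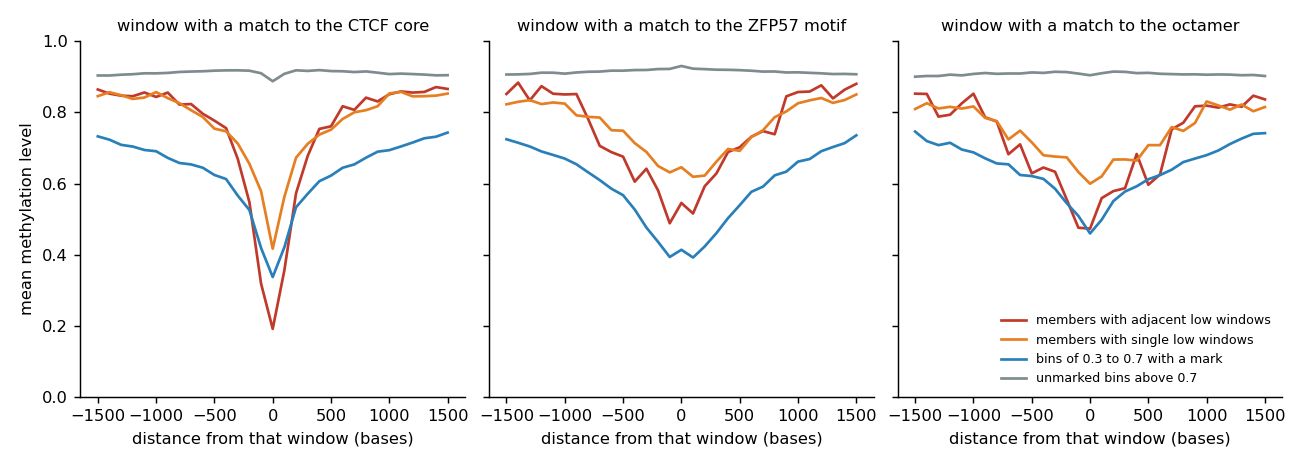
Mean methylation level (0 to 1) of listed windows against the distance in bases from a window that holds a match to the CTCF core (left), the ZFP57 motif (middle) or the octamer (right), for 4 sets of bins. At the CTCF core the members with adjacent low windows fall to 0.191 and those with single low windows to 0.417, and the unmarked bins above 0.7 stay at 0.888. At the other motifs the dip of these 2 sets of members is wider and less deep. Some dip is built in at each motif, because members were chosen for a low mean. Within members with single low windows, windows with a ZFP57 match had 0.6458 and those without 0.6258. With adjacent low windows these levels were 0.5453 and 0.5391, so neither set was lower at ZFP57. For the octamer they were 0.5995 with and 0.6263 without a match (single), and 0.4731 and 0.5397 (adjacent).

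The 3 members with most CpG in a low stretch whose core window was low are shown with the core in capitals (200 bases each, plus strand). The bin chr13:66969001-66970000, described above, had a level of 0.12 in the core window. The bin chr4:140581001-140582000, on an exon of Crocc, the gene of the ciliary rootlet protein, had a mean of 0.394 and levels of 0.12 and 0.25 in the window with the core and the next. The bin chr7:7231001-7232000, 21000 bases from the start of Clcn4-2, a chloride transporter gene, had levels of 0.17, 0, 0.2 and 0.23, with the core in the third, followed by 0.93, 1 and 1.

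Near Gm5451, chr13:66969385-66969584: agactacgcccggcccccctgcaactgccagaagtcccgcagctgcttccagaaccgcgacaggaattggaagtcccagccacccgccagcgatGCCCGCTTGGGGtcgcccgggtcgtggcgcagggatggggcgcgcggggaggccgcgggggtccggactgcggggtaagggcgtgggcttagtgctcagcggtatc

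Crocc exon, chr4:140581016-140581215: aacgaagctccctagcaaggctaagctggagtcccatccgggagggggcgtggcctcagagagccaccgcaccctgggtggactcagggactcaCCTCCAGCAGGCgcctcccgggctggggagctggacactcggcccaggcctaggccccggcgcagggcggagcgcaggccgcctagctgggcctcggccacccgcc

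21000 bases from Clcn4-2, chr7:7231123-7231322: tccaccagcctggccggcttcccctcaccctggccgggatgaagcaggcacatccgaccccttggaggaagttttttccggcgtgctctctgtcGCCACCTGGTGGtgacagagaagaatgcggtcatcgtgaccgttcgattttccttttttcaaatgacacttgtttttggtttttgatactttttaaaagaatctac

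Few genes had a member near their start, in the lists used as over all genes. A member lay within 1000 bases of the start of 209 of the 18888 protein-coding genes with a bin there, or 1.1%, so that lists of this size are too short to be told apart from all genes. Among 46 imprinted genes with a bin, 1 had a member, and among 29 germline genes 1 did. None of the naive (19), formative (18), primed and streak (20), developmental (26), housekeeping (22) or DNA methylation (14) genes had one. The median H3K4me3 over 2 kb around the start ran from 1.99 RPKM (naive) to 6.22 (housekeeping) in these lists. It was 2.86 for the imprinted genes and 0.498 for the germline genes. The limit of 0.5 RPKM thus kept many of the listed starts out in advance, and the counts of 0 say little about methylation there. The imprinted one was Blcap, at chr2:157397001-157398000, with a mean of 0.463, 1 low window of 6 listed and 9 CpG. The germline one was Asz1, a gene of the piRNA pathway, at chr6:18060001-18061000, with a mean of 0.658 and 1 low window of 5. By gene family, members lay near 10 of 611 Olfr genes, 6 of 104 Vmn1r and Vmn2r genes, 7 of 343 Zfp genes, 1 of 33 Pcdh genes, 1 of 86 Krt genes, 2 of 37 Serpin genes and 0 of 39 Hox genes.

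For 69 genes the start itself lay in a member, and 54 of these were in the FPKM table. Their expression lay between that of genes with methylated and with marked starts. In the passage 10 library 14 of the 54 (25.9%) reached 1 FPKM and the median was 0.0392, against 10.9% of 1047 genes whose start lay in an unmarked bin above 0.7 (median 0), 52.5% of 1616 genes in a marked bin of 0.3 to 0.7 (median 1.26) and 77.1% of 8949 genes in a bin under 0.3 (median 6.71). Of the 14, 11 had H3K4me3 of 0.5 RPKM or more in the bin before or after, as did 14 of the other 40.

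Highest was Rbm17, a splicing factor gene (chr2:11507066-11525780, minus strand), with FPKM from 92.2 to 113 and a median of 101 in the 7 fPSC libraries. Its start bin had a mean of 0.408 and 0.372 RPKM of H3K4me3, and the bin before it on the plus strand had a level of 0 and 8.34 RPKM. The same edge was seen at Epn1, an endocytic adaptor gene (43.3 to 87.4 FPKM), whose start bin had a mean of 0.47 and was followed by 9.70 RPKM of H3K4me3 at a level of 0.186, and at its paralog Epn2, with 8.71 RPKM and a level of 0.0117 in the bin before. The gene U2af2 overlaps the Epn1 bin too. Prpsap1 (45.2 to 79.2 FPKM), a gene of nucleotide synthesis, and Ppp2r1b (24.3 to 48.1 FPKM), a scaffold subunit gene of protein phosphatase PP2A, had no neighbouring bin above 0.373 RPKM. Tsnax, the gene of the translin partner (16 to 27.7 FPKM), had a stretch of 4 low windows with 43 CpG, and 0.745 RPKM in the bin after.

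Of the 54 genes, 25 passed the filter of 1 FPKM in 2 or more libraries and were tested with limma on log2(FPKM + 1), adjusted by Benjamini-Hochberg over all 12513 genes tested. A gene that passed through the group in which it was high had to differ, so the counts are given as a description. The genes described below were picked as the most expressed or most changed of the 25, and their p-values are given as a description too. Against mESCs, 3 were higher in fPSCs (17.3% of all genes were called higher) and 11 were lower (23.0% of all). Against EpiSCs, 0 were higher (13.3% of all) and 8 were lower (19% of all), and 5 were lower without the first EpiSC library, as without the second. The median log2 difference of the 25 was -0.49 against mESCs and -0.21 against EpiSCs, and that of all genes -0.04 and 0.02.

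Aim2, which encodes a cytosolic DNA sensor, fell most against mESCs. It had 24.1 and 29.5 FPKM in mESCs and from 0.0184 to 0.304, with a median of 0.0731, in the 7 fPSC libraries (log2 difference -4.66, SE 0.14, adjusted p = 2.32e-11 by limma), and the groups did not overlap. Its start bin, chr1:175281001-175282000, had a mean of 0.516 and 2 low windows of 5, neither next to the other, and the bin before it had a level of 0.122 and 1.37 RPKM of H3K4me3. In EpiSCs Aim2 was at 0.0931 and 0.172 FPKM, inside the range of fPSCs.

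Dkk3, a secreted protein of the Dickkopf family, had 6.96 and 3.83 FPKM in mESCs, 2.45 and 2.32 in EpiSCs and from 0 to 0.190 in fPSCs, with a median of 0.0741. It was lower against both (log2 difference -2.51, SE 0.16, adjusted p = 3.93e-08 against mESCs and -1.64, SE 0.16, adjusted p = 4.51e-06 against EpiSCs, limma). All 10 windows of its start bin were listed, with a mean of 0.43 and a stretch of 4 low windows with 20 CpG. EpiSCs were grown on fibroblasts. Of 10 fibroblast markers, 7 reached 1 FPKM in both EpiSC libraries, 1 in both mESC libraries and 2 in all 7 fPSC libraries, and they summed to 413 and 592 FPKM in EpiSCs, 109 and 175 in mESCs and from 8.49 to 13.5 in fPSCs. Col1a1, the main fibroblast collagen, was at 111 and 153 FPKM in EpiSCs, and 4 of the 10 were at 0 in the passage 10 fPSC library. The part of fibroblasts in the differences between fPSCs and EpiSCs given here was not tested.

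Zfp459, a zinc finger gene, had 6.74 and 6.43 FPKM in mESCs and from 0.0733 to 0.950 in fPSCs, with a median of 0.499 (log2 difference -2.31, SE 0.19, adjusted p = 6.58e-07, limma). The levels in EpiSCs, 0.238 and 0.189 FPKM, lay within the fPSC range. Tspyl3 had 3.61 and 3.86 FPKM in EpiSCs and from 0.142 to 1.14 in fPSCs, median 0.612, (log2 difference -1.56, SE 0.19, adjusted p = 3.66e-05, limma), and Trim47, a ubiquitin ligase gene, had 1.09 and 2.75 in EpiSCs and from 0 to 0.211 in fPSCs, median 0.0623, (-1.40, SE 0.16, adjusted p = 2.69e-05, limma). For both genes every fPSC library was below each EpiSC library. Aim2, Dkk3, Zfp459, Tspyl3 and Trim47 also reached 1 FPKM in 2 libraries of a group outside the comparison given, as Aim2 did with 14.2 and 14.7 FPKM in EpiLCs.

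The 3 genes that were higher than in mESCs changed less. Syt11, a synaptotagmin gene of vesicle traffic, had 0.532 and 0.384 FPKM in mESCs and from 1.86 to 4.82 in fPSCs, with a median of 2.00 (log2 difference 1.29, SE 0.29, adjusted p = 0.00256, limma). Its level in EpiSCs, 7.35 and 5.42 FPKM, was higher still (-1.04, SE 0.29, adjusted p = 0.0137 for fPSCs against EpiSCs, limma). Epn1 had 33.8 and 30.3 FPKM in mESCs, against a median of 53.9 in fPSCs, and a log2 difference of 0.86 (SE 0.27, adjusted p = 0.0208, limma), which missed the threshold without either mESC library. In EpiSCs it was at 88.1 and 123 FPKM, above every fPSC library (-0.81, SE 0.27, adjusted p = 0.0356 for fPSCs against EpiSCs, limma). That call was lost in 8 of 13 alternatives, among them the libraries of passages 10, 20 and 30 alone (-0.37). These had 73.6 to 87.4 FPKM, against 43.3 to 53.9 in the fPSC libraries with later sample numbers, CMT (45.9) among them. Ppp2r1b had 23.3 and 16.1 FPKM in mESCs, against a median of 35.6 in fPSCs, and a log2 difference of 0.80 (SE 0.24, adjusted p = 0.0156, limma), and it missed the threshold with the libraries of passages 10, 20 and 30 alone (0.46) and without the second mESC library (0.54). The fPSC levels of Ppp2r1b split between the same libraries, 24.3 to 29.2 FPKM at passages 10, 20 and 30 and 35.6 to 48.1 in the others. The cause of these splits was not tested. For Epn1 and Ppp2r1b the fPSC libraries lay above the mESC ones.

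**Figure D5:**
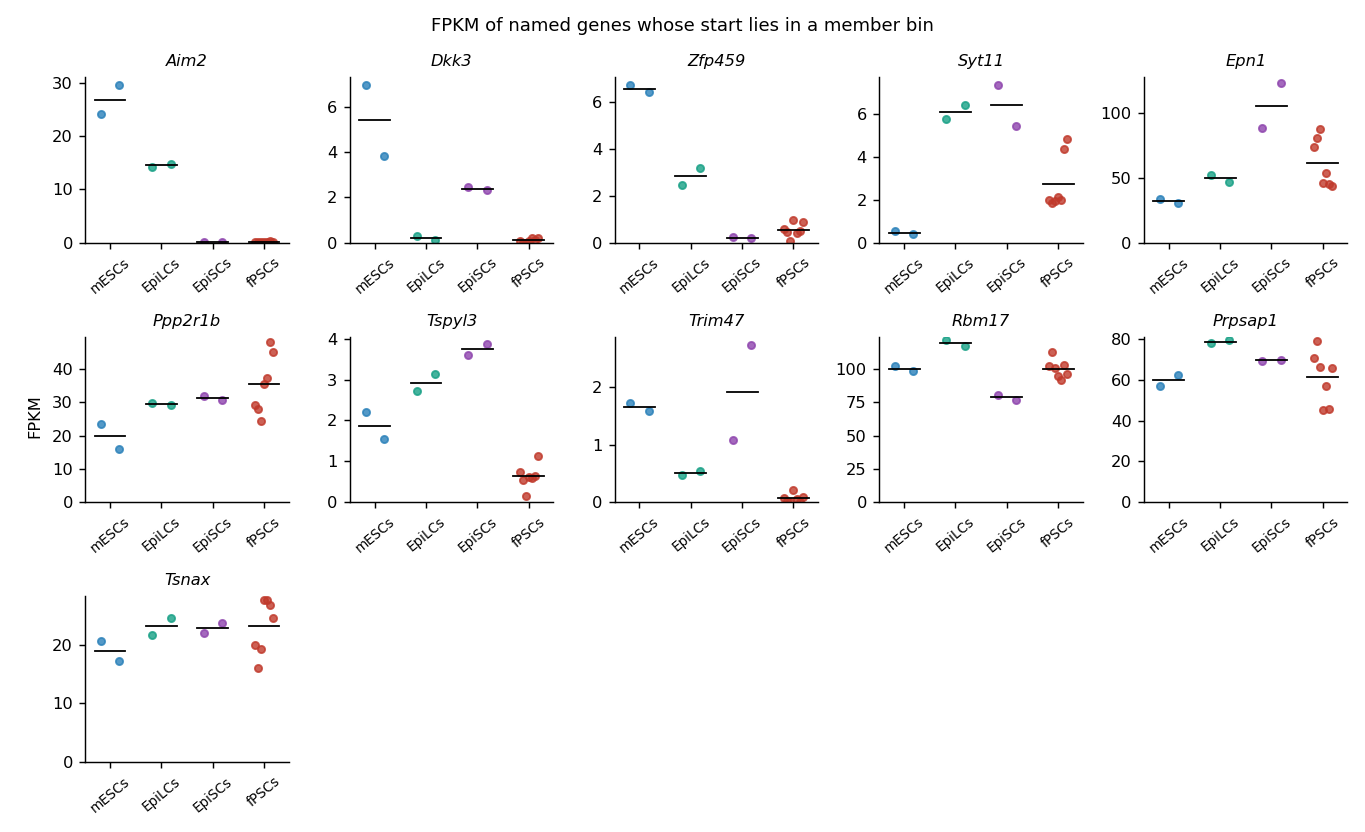
FPKM of 11 genes whose start lies in a member, in mESCs (2 libraries), EpiLCs (2), EpiSCs (2) and fPSCs (7). Each point is 1 library and the line is the group mean, and each panel has its own linear axis from 0. The fPSC points of Aim2, Dkk3, Zfp459 and Trim47 lie below 1, and the mESC points of these 4 genes lie above 1.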

How the data were processed

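The regions and the gene lists were chosen with earlier results of these data known. Methylation was deposited by the authors as a fraction per 100-base window, from MethylC-seq reads mapped to mm9 with BS-Seeker2, and the ChIP signal was deposited by the authors as RPKM per 100-base window (STAR ChIP-seq, Bowtie2 2.2.2, multi-mapped and duplicate reads removed). The labels name 2 replicates of each assay. Gene expression was deposited by the authors as FPKM (TopHat2 2.1.1, Cufflinks 2.1.1). An unlisted window counted as RPKM 0 and as missing methylation. Genes and starts came from GENCODE M1. Reads behind a methylation level are unknown, so bins were described without a test. Genes at 1 FPKM or more in 2 libraries were tested with limma 3.58.1 (R 4.3.3) with trend, in 1 fit over 13 libraries, and called at an adjusted p of 0.05 and a fold of 1.5. By the paper, the fPSC libraries labelled by passage alone and the one named CMT came from 1 line, so the fPSC libraries were not all independent. For mESCs, EpiLCs and EpiSCs, whether the libraries of a group were separate cultures is not stated. The p-values therefore measure the spread between libraries, which may be technical. The fit was tested on simulated data. Alternatives changed the bin rule, the pseudocount, the filter, the scaling and the libraries. Named bins were the uniform and mixed bins with most CpG, the largest step or the most crossings, the longest runs and those at the limits, and named genes were the 5 with the highest mean FPKM in fPSCs and, per comparison, the 3 with the largest rise and fall. The split into single, adjacent and CpG-rich low windows, the 2 example patches on chromosome 14 and the 3 bins with a CTCF core were chosen after the values were seen. Sequences came from the NCBIM37 genome. Single-cell tables were not used here.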

Additional observations from a re-analysis of the deposited data

Results flagged for a closer look

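Of the 11 named genes, 2 had 1 fPSC library far above the other 6 by Dixon's test of the gap against the range, and chance flags about 1 in 20 groups. Aim2 was at 0.304 FPKM in the library named BVSC, and Trim47 at 0.211 FPKM in the library named CMT. Both values stayed below those of either mESC library.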

How the results depend on the processing

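The number of bins followed the limits of the rule. Against 16299 bins, of which 94.2% were mixed, asking for 8 or more listed windows gave 1068 (97.2% mixed), a mean from 0.4 to 0.6 gave 5877 (98.7%), a limit of 0.25 RPKM gave 7418 (95.1%), a limit of 1 RPKM gave 27305 (92.6%), and the median in place of the mean gave 5237 (79.2%). Window limits of 0.2 and 0.8 gave 89.7% mixed, and bins shifted by 5 windows numbered 16282. Under these rules the share with a CTCF core, an alternative chosen after the data were seen, ran from 14.9% to 31.4%, and that of unmarked bins above the range from 10.3% to 12.4%. The correlation over blocks was 0.28 with 8 or more windows and 0.69 with the median, and 0.78 to 0.88 under the others. The cause was not tested.

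With starts within 1000 bases of a member, 71 genes were tested in place of 25, so the counts are larger for that reason alone. Of the 71, 35 were called against mESCs and 19 against EpiSCs, in place of 14 and 8. Against mESCs 8.45% were higher and 40.8% lower, in place of 12% and 44%. Against EpiSCs 2.82% were higher and 23.9% lower, in place of 0% and 32%. With the start itself in a member, leaving out 1 library gave 10 to 15 and 5 to 11 called genes. Both values of 5 came from leaving out an EpiSC library. Another pseudocount, no filter, upper-quartile scaling and the fPSC libraries P10, P20 and P30 alone gave 13 to 15 and 7 to 10. Of the named genes, no called difference changed sign, and 12 calls were lost, all of them of Epn1 and Ppp2r1b. Differences that were not called changed sign in 18 cases. With the libraries P10, P20 and P30 alone the log2 difference against mESCs was 0.068 for Rbm17 (-0.0027 with all) and -0.039 for Tsnax (0.26), and against EpiSCs 0.044 for Prpsap1 (-0.21) and -0.19 for Ppp2r1b (0.14). Upper-quartile scaling gave 0.042 for Rbm17 against mESCs. Leaving out 1 library gave -0.031 to 0.023 for Rbm17 and -0.055 to 0.077 for Prpsap1 (0.0094 with all) against mESCs, and -0.064 to 0.069 for Tsnax (-0.012) against EpiSCs. No paired analysis was possible because the labels number no fPSC library as a replicate. The share of masked bases could not be computed, as the genome file marks no repeats, and no uniform bin had 10 listed windows.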
